A study of Mus musculus with 4 samples.

Results

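The muscle atrophy ligases and the FoxO factors behind them were examined in the mouse heart as a set of 10 genes chosen by name, namely Trim63, Trim54, Trim55, Fbxo32, Fbxo30, Fbxo21, Cblb, Nedd4, Foxo1 and Foxo3, out of 23238 gene symbols in the data. All 10 were present. The hearts came from male CDF1 mice in 4 groups, and each group was represented by 1 library: the normal control E(−)T(−) had neither exercise nor tumor, the normal exercise group E(+)T(−) ran on a treadmill at high intensity, the cancer control E(−)T(+) received CT26 mouse colorectal cancer cells through the tail vein, and the cancer exercise group E(+)T(+) had both. The labels give postnatal day 28 as the age in all groups, and the design text names 10 mice per group. That age is the one at which the mice were bought, and the hearts were taken later, after the tumor had grown and the exercise had been given. Whether a heart library came from 1 mouse or from several was not given in the sources used here, and injection into the blood models dissemination rather than a tumor at its organ of origin.

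Ubiquitin ligases attach ubiquitin to chosen proteins and so mark them for the proteasome, and a small set of muscle ligases is switched on when muscle loses mass. FoxO transcription factors drive several of these genes, and insulin and IGF signaling through Akt keeps FoxO proteins out of the nucleus, while glucocorticoid hormone acts with FoxO on some of the same promoters. In the heart, the ligases also turn over contractile and signaling proteins, so their transcripts are read in relation to both wasting and remodeling.

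The promoters of Trim63 and Trim54 are shown because these members had the largest deposited differences in cancer control vs. normal control, leaving out Cblb and Foxo3 with their few reads. In the tumor comparison of exercised mice Trim55 differed more, at −0.93. The RefSeq table (build GRCm38.p6) held windows for 8 of the 10 members, and Fbxo32 and Trim55 were without an entry. Both strands of the 250 bases before each start were searched for the FoxO motif GTAAACA and for AGAACA, a single arm of the glucocorticoid response element. Capitals mark these letters on either strand, and both windows read 5′ to 3′ on the plus strand, at chr4:134314870-134315119 for Trim63 and at chr5:31116362-31116611 for Trim54.

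Trim63: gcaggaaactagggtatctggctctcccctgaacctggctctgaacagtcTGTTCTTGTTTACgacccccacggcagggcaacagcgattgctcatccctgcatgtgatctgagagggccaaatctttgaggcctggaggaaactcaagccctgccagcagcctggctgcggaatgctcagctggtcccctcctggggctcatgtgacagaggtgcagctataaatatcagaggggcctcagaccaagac
Trim54: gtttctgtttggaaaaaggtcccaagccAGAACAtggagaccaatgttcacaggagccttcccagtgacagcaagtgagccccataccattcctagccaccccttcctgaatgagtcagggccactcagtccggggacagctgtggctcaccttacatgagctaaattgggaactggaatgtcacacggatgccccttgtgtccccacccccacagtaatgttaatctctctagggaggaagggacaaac

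In the Trim63 window the arm of the glucocorticoid element lay on the minus strand 200 bases before the start and was followed, with 0 bases between, by the FoxO motif on the minus strand at 194 bases. In the Trim54 window 1 such arm lay on the plus strand 222 bases before the start, and GTAAACA was not found. Of the other windows, 1 of those of Nedd4 held the arm, at 216 bases, and those of Fbxo30, Fbxo21, Foxo1, Foxo3 and Cblb held neither set of letters. Of 32851 promoter windows of this length, 3.17% held the FoxO motif, 16.1% held the arm and 0.691% held both. The whole glucocorticoid element, defined as the arm, 3 bases and the reverse complement of the arm, was found as an exact match in 0.00913% of windows and in none of the members' windows. In the Trim63 window the letters tgaaca lay 3 bases before TGTTCT, which differs from that element in the first letter only. Elements with a mismatched arm were not searched for. Such matches describe letters only.

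The libraries held 6595402 to 11545916 reads recovered from the deposited values, and the members took 0.0490% to 0.107% of them. The library of the cancer exercise group stood apart. In it, 6 globin genes took 37.3% of reads, against 7.86% to 8.76% in the others, and all 9 erythroid markers in the data were at least 2-fold higher than in either the cancer control or the normal exercise heart. Scaling to library size in place of the deposited normalization took the median of all genes to −0.60, −0.74 and −0.76 in the 3 comparisons with the cancer exercise heart, to −0.17 in cancer control vs. normal control and to −0.02 in normal exercise vs. normal control. Under it, 25.6%, 35.3% and 37.1% of all genes were at least 2-fold lower in cancer exercise vs. cancer control, vs. normal exercise and vs. normal control, and 3.81%, 5.62% and 6.04% at least 2-fold higher. In cancer control vs. normal control these shares were 17.0% lower and 12.3% higher, and in normal exercise vs. normal control 7.51% lower and 6.55% higher. All 12 cardiomyocyte markers were read in each library, and in the deposited values none differed by 2-fold in any of the 5 comparisons. With scaling to library size their median was −0.48, −0.46 and −0.45 in cancer exercise vs. cancer control, vs. normal exercise and vs. normal control. Mybpc3, 1 of these markers, had 24072 of 6595402 reads in the normal control and 15901 of 11545916 in the cancer exercise heart. That none differed by 2-fold therefore holds for the deposited scaling only. The 8 skeletal muscle markers summed to only 29 to 79 reads per library. Markers of other cells differed between the groups. In normalized reads, 8 leukocyte markers summed to 730.2 in the normal control, 925 in the normal exercise heart, 4512 in the cancer control and 5959 in the cancer exercise heart. Of these, S100a8 and S100a9, genes of neutrophil granules, made up 108, 70.2, 2809 and 5320. The other 6 markers summed to 622, 854, 1703 and 639. In the deposited scaling the rise between the tumor-bearing hearts thus lay in S100a8 and S100a9, while the sum of the others was lower. The sums of 5 fibroblast markers were 24137, 28045, 50673 and 31594 in the same order, those of 5 adipocyte markers were 1763, 439.7, 422 and 2418, those of 4 endothelial markers were 5441, 4183, 3623 and 4957, and those of 4 lung epithelium markers were 582, 148, 503 and 1721. None of these lists was at 0 throughout, the adipocyte list having at most 2 markers at 0 in a library and the leukocyte list at most 1. Their part in the results was not tested, and in bulk tissue fewer cells of a type and less RNA per cell cannot be told apart.

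With 1 library per group, no difference could be tested, and a p-value was not computed. Differences are given on the log2 scale of the deposited values, first group minus second, with a 95% interval that covers the counting of reads only. Neither the spread between mice nor copies made by PCR are in that interval. A gene was called when it had at least 4 normalized reads in at least 1 of the 2 libraries and differed by at least 2-fold. Of the 10 members, 9 reached this count minimum, and Foxo3 did not.

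**Figure D1:**
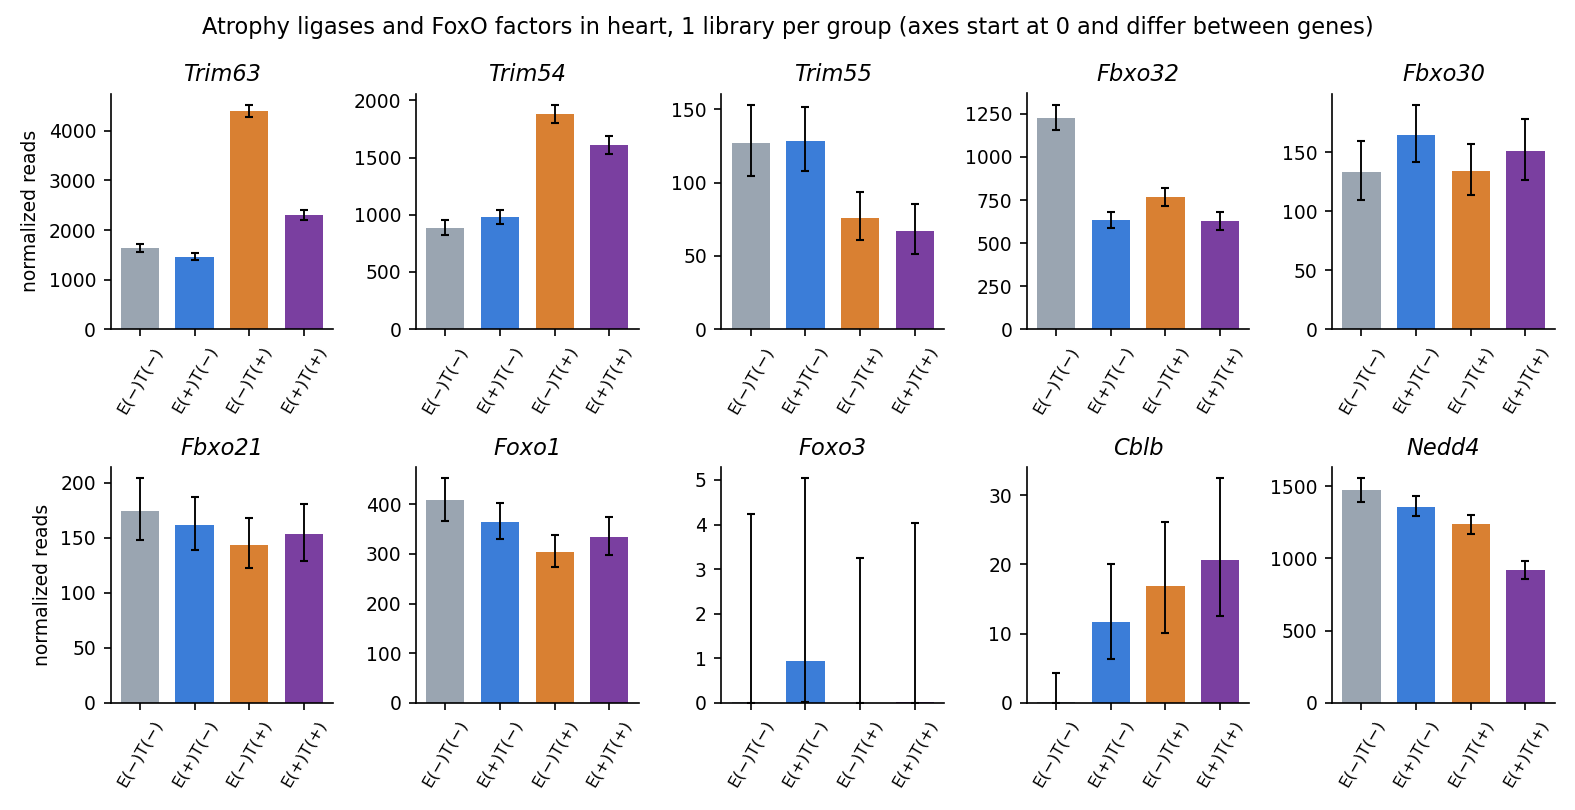
Normalized reads (linear axis from 0, own scale per gene) of the 10 members in the 4 heart libraries, with black bars for the 95% Poisson interval of the read count. Trim63 and Trim54 stand highest in E(−)T(+), Fbxo32 stands highest in E(−)T(−), and Foxo3 has at most 1 read in any library.

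The question in cancer control vs. normal control was what the tumor went with in hearts of mice that did not exercise. Here 3 of the 9 members that reached the count minimum were at least 2-fold higher, namely Trim63, Trim54 and Cblb, and 0 were at least 2-fold lower. Over all 14311 genes tested, 14.6% were at least 2-fold higher and 13.1% at least 2-fold lower. The median difference over the 10 members was −0.13, against −0.01 over all genes tested, with members on both sides of 0.

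Trim63, the ligase MuRF1 that acts on sarcomere proteins such as troponin I, lies at chr4:134315120-134329629 (GRCm38.p6, as all loci here). It had 1430 reads in the normal control, 1616 in the normal exercise heart, 4993 in the cancer control and 2103 in the cancer exercise heart. The deposited log2 values were 10.68, 10.51, 12.11 and 11.17 in the same order. The cancer control was thus the highest of the 4 and the normal exercise heart the lowest on this scale, and with scaling to library size the cancer exercise heart was the lowest. The difference of the cancer control from the normal control was 1.43 (95% interval 1.34 to 1.51), or 2.69-fold. It was 1.24 relative to the median cardiomyocyte marker and 1.27 with scaling to library size.

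Trim54, the ligase MuRF3 that binds microtubules and the Z-disc, lies at chr5:31116612-31137626. It had 774 reads in the normal control, 1083 in the normal exercise heart, 2131 in the cancer control and 1470 in the cancer exercise heart. Both tumor-bearing hearts were above both tumor-free hearts in the deposited values, which were 9.80, 9.94, 10.88 and 10.65, and with scaling to library size the cancer exercise heart came level with the normal exercise heart, at a difference of −0.005. The difference of the cancer control from the normal control was 1.08 (0.96 to 1.20), or 2.12-fold. It came under 2-fold, at 0.89 to 0.93, with scaling to library size, with genes over 1% of a library left out, with thinned reads and relative to the cardiomyocyte markers.

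Trim55, the ligase MuRF2 of the M-band and microtubules, at chr3:19644344-19692584, differed in the other direction. It had 111 reads in the normal control, 142 in the normal exercise heart, 86 in the cancer control and 61 in the cancer exercise heart, with deposited values of 7.001, 7.02, 6.26 and 6.08. Both tumor-bearing hearts were below both tumor-free hearts. The difference of the cancer control from the normal control was −0.74 (−1.17 to −0.33). It passed 2-fold with thinned reads, at −1.11. Between the exercised hearts the tumor difference was −0.93 (−1.40 to −0.50).

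The 3 MuRF genes can be compared inside a library, where no scaling enters. A change of such a ratio between libraries, and not the ratio itself, is what is read from it. The reads of Trim54 per read of Trim55 were 6.97 (95% interval 5.71 to 8.59) in the normal control and 7.63 (6.40 to 9.15) in the normal exercise heart, and 24.8 (19.97 to 31.1) in the cancer control and 24.1 (18.7 to 31.7) in the cancer exercise heart. The intervals of the tumor-bearing hearts overlapped each other and lay apart from those of the tumor-free hearts. For Trim63 per Trim55 the ratio was 12.9 (10.6 to 15.8) in the normal control, 11.4 (9.58 to 13.6) in the normal exercise heart, 58.1 (46.9 to 72.7) in the cancer control and 34.5 (26.7 to 45.2) in the cancer exercise heart. Here too the tumor-bearing hearts lay above the tumor-free ones, and the exercised of the tumor-bearing hearts lay below the sedentary one. Trim63 per Trim54 was 1.85 (1.69 to 2.02), 1.49 (1.38 to 1.61), 2.34 (2.23 to 2.47) and 1.43 (1.34 to 1.53) in the order used for Trim63, lower with exercise in both states.

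**Figure D2:**
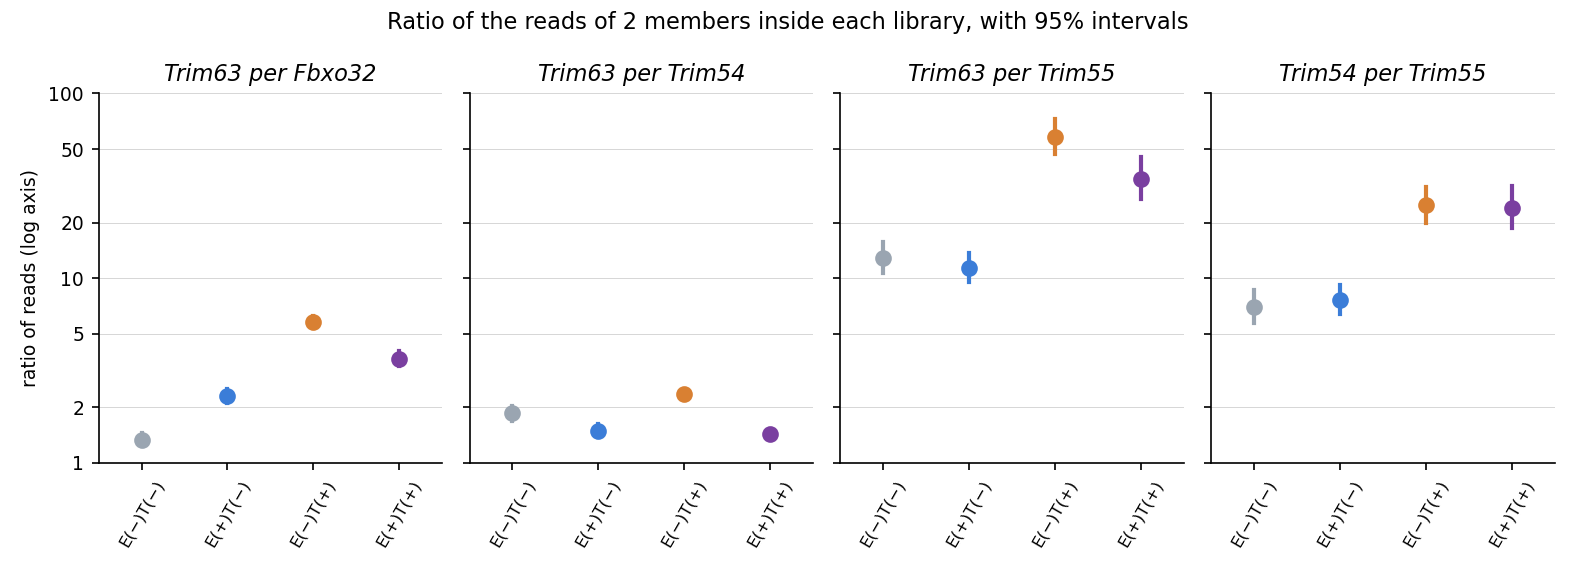
Ratio of the reads of 2 members inside each of the 4 heart libraries (log axis from 1 to 100), with vertical bars for the 95% interval of counting error. Trim54 per Trim55 stands near 7 in the tumor-free hearts and near 24 in the tumor-bearing hearts, and Trim63 per Fbxo32 runs from 1.34 in E(−)T(−) to 5.76 in E(−)T(+).

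Fbxo32, the ligase atrogin-1 (also MAFbx) that in the heart acts on calcineurin, lies at chr15:58175879-58214892 and did not follow Trim63. It had 1071 reads in the normal control, 701 in the normal exercise heart, 867 in the cancer control and 575 in the cancer exercise heart, with deposited values of 10.26, 9.31, 9.58 and 9.30. The normal control was the highest of the 4, and the normal exercise heart and the cancer exercise heart had values within counting error of each other, with a difference of −0.01 (−0.17 to 0.15) as deposited and −0.73 with scaling to library size. The difference of the cancer control from the normal control was −0.68 (−0.81 to −0.55), opposite in direction to Trim63 in the same libraries. The reads of Trim63 per read of Fbxo32 were 1.34 (1.23 to 1.45) in the normal control, 2.31 (2.11 to 2.52) in the normal exercise heart, 5.76 (5.36 to 6.20) in the cancer control and 3.66 (3.33 to 4.02) in the cancer exercise heart, and no 2 of these 4 intervals overlapped.

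Fbxo30 (also MUSA1) and Fbxo21 (also SMART), 2 F-box ligases named in the wasting of skeletal muscle, were read at a like level in all hearts as deposited. Fbxo30 had 116, 182, 152 and 138 reads and Fbxo21 had 152, 179, 163 and 140 reads, in the order used for Trim63. In the deposited values no difference of either gene in the 5 comparisons was beyond counting error, and their differences ran from −0.28 to 0.31. The intervals of the deposited differences reached from −0.61 to 0.66. Scaled to library size, the differences of the cancer exercise heart from the cancer control, the normal exercise heart and the normal control were −0.41, −0.84 and −0.55 for Fbxo30 and −0.49, −0.80 and −0.92 for Fbxo21, so that the like level holds for the deposited scaling only. Fbxo30 also turned from 0.01 to −0.14 in cancer control vs. normal control.

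Cblb, a ligase that acts on the insulin receptor substrate and restrains T cells, had few reads. It had 0 reads in the normal control, 13 in the normal exercise heart and 19 in each of the hearts with cancer, with deposited values of 0.21, 3.67, 4.16 and 4.44. Counting the 0 as 3 reads, it was at least 3.42-fold higher in the normal exercise heart, at least 4.87-fold higher in the cancer control and at least 6.04-fold higher in the cancer exercise heart than in the normal control. The same bounds scaled to library size were 3.37-, 4.38- and 3.62-fold. They cover neither the counting error of the 13 and 19 reads, with which the lower 95% limits of the differences were 1.27, 1.84 and 2.15 on the log2 scale, nor the spread between mice, and they rest on the single library of the normal control. Between the tumor-bearing hearts Cblb was at 0.28 (−0.69 to 1.31) as deposited and at −0.26 with scaling to library size. Leukocytes also use Cblb, and the part of the leukocyte markers given above in the Cblb difference was not tested. Cd3e, the T cell marker among them, had 6, 5, 10 and 5 reads in the order used for Trim63.

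Nedd4, a ligase of membrane receptors and channels, had 1284 reads in the normal control, 1502 in the normal exercise heart, 1400 in the cancer control and 840 in the cancer exercise heart. The deposited values were 10.52, 10.41, 10.27 and 9.85, so that the cancer exercise heart was the lowest and the normal control the highest. The difference of the cancer control from the normal control was −0.25 (−0.36 to −0.14), and that of the cancer exercise heart from the normal exercise heart was −0.56 (−0.69 to −0.44). No difference of Nedd4 reached 2-fold as deposited, and those of the cancer exercise heart did so with scaling to library size, at −1.01 to −1.42.

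Foxo1, the FoxO factor with the most reads among the members, lies at chr3:52268337-52350109. It had 356 reads in the normal control, 404 in the normal exercise heart, 345 in the cancer control and 306 in the cancer exercise heart. Its deposited values of 8.68, 8.52, 8.25 and 8.39 put the normal control highest. The difference of the cancer control from the normal control was −0.42 (−0.64 to −0.21), in the heart where Trim63 was highest. Foxo3, the factor best known for driving Fbxo32, had 1 read in the normal exercise heart and 0 reads in the other 3 libraries, so no fold is given. Ubb, a ubiquitin gene that every cell uses, likewise had 1 read in the normal control and 0 in the others, so a listing at 0 is not read as absence. Other family members, taken from a wider list, were read. Foxo4 had 328, 371, 307 and 373 reads and Foxo6 had 18, 15, 24 and 30 reads in the order used for Trim63. In cancer control vs. normal control Foxo4 differed by −0.47 (−0.70 to −0.24).

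**Figure D3:**
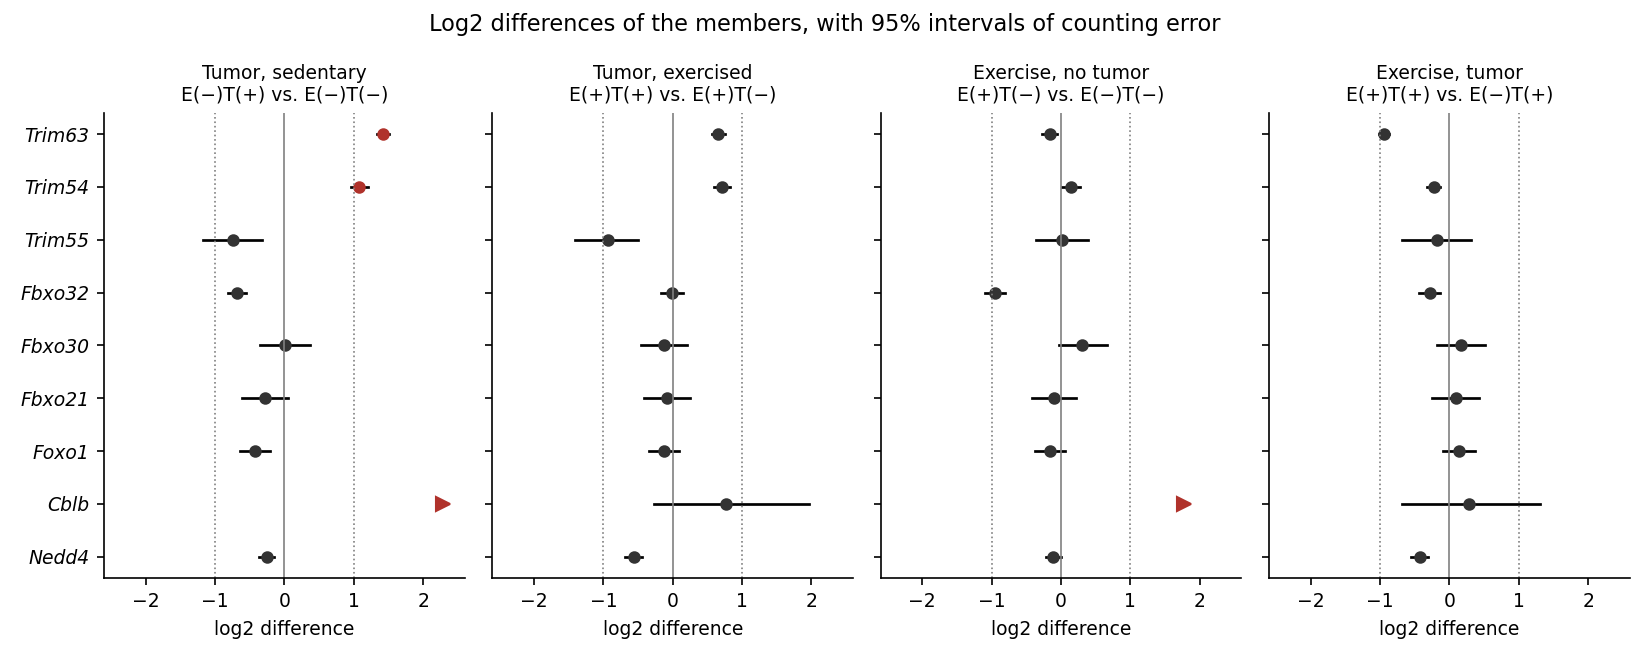
Log2 differences of 9 members (points, red from 2-fold on) in 4 comparisons, with lines for the 95% interval of counting error, dotted lines at 2-fold and triangles for lower bounds where 1 library had 0 reads. Trim63 and Trim54 are at 1.43 and 1.08 in E(−)T(+) vs. E(−)T(−), where Trim55 and Fbxo32 are at −0.74 and −0.68.

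In normal exercise vs. normal control, which asked what exercise went with in hearts without a tumor, 1 of the 9 members was at least 2-fold higher (Cblb) and 0 were at least 2-fold lower. Over all 13930 genes tested, 5.88% were at least 2-fold higher and 6.40% at least 2-fold lower. The median of the 10 members was −0.04, against 0.00 over all genes tested. Fbxo32 had the largest difference among the well-counted members, −0.95 (−1.09 to −0.81), or 1.93-fold lower with exercise. It ran from −0.997 to −0.92 over the alternative scalings and pseudocounts, so that it stayed close to the 2-fold line in each. Trim63 was lower by far less, at −0.17 (−0.27 to −0.06), Trim54 was at 0.14 (0.0085 to 0.28) and Trim55 was at 0.02 (−0.35 to 0.39), and at −0.007 with scaling to library size.

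In cancer exercise vs. cancer control, the exercise comparison in tumor-bearing mice, 0 of the 9 members were called as deposited. Over all 14357 genes tested, 9.39% were at least 2-fold higher and 10.0% at least 2-fold lower. The median of the 10 members was −0.09, against −0.01 over all genes tested. Trim63 had the largest difference, −0.94 (−1.01 to −0.86), or 1.91-fold lower in the exercised heart. It passed 2-fold with genes over 1% of a library left out (−1.004), relative to the cardiomyocyte markers (−1.04) and with scaling to library size (−1.52). Trim54 was at −0.23 (−0.32 to −0.13), Fbxo32 at −0.28 (−0.44 to −0.13) and Nedd4 at −0.43 (−0.55 to −0.30). Foxo1 was at 0.14 (−0.09 to 0.36) as deposited and at −0.45 with scaling to library size.

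The 2 exercise differences share no library, so each member could be compared between them, with counting error only and no replicate. The exercise difference with tumor minus that without was −0.77 (−0.90 to −0.64) for Trim63, −0.37 (−0.53 to −0.20) for Trim54 and −0.31 (−0.47 to −0.15) for Nedd4. For Fbxo32 it was 0.67 (0.47 to 0.87), with exercise differences of −0.95 without and −0.28 with a tumor, and 0.10 with scaling to library size. For Trim55, Fbxo30, Fbxo21 and Foxo1 the interval included 0 as deposited, and with scaling to library size Fbxo21 turned from 0.20 to −0.37 and Foxo1 from 0.30 to −0.27. Scaled to library size, the exercise differences without and with a tumor also moved apart for Trim55, at −0.007 and −0.76, and for Fbxo30, at 0.29 and −0.41. Under that scaling the exercise differences of Fbxo32 were alike, at −0.97 without and −0.87 with a tumor, while those of Trim63 were −0.19 and −1.52. The ratio of Trim63 to Fbxo32 reads, which needs no scaling, went from 1.34 to 2.31 with exercise without a tumor and from 5.76 to 3.66 with one, and it does not say which of the genes differed.

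In cancer exercise vs. normal exercise, the tumor comparison in exercised mice, 0 of the 9 members were called as deposited, while 12.0% of the 14282 genes tested were at least 2-fold higher and 11.1% at least 2-fold lower. The median of the 10 members was −0.10, against −0.01 over all genes tested. Trim63 was at 0.65 (0.56 to 0.75) and Trim54 at 0.71 (0.60 to 0.83), and with scaling to library size these turned to −0.07 and −0.005. With genes over 1% of a library left out they were 0.48 and 0.54, and relative to the cardiomyocyte markers they were 0.40 and 0.46. Trim55 was at −0.93 as deposited and passed 2-fold with genes over 1% left out (−1.11), relative to the cardiomyocyte markers (−1.19) and with library size scaling (−1.64).

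With both exercise and tumor against neither, in cancer exercise vs. normal control, 1 of the 9 members was at least 2-fold higher (Cblb) and 0 were at least 2-fold lower, against 12.4% higher and 12.2% lower of the 14329 genes tested. The median of the 10 members was −0.09, against −0.02 over all genes tested. Trim63 was at 0.49 (0.39 to 0.59) and turned to −0.25 with scaling to library size. Trim54 was at 0.86 (0.73 to 0.99), and at 0.12 with scaling to library size. Fbxo32 was at −0.96 (−1.11 to −0.82), Trim55 at −0.92 (−1.41 to −0.47) and Nedd4 at −0.68 (−0.81 to −0.55). Leaving out genes over 1% of a library took Fbxo32 to −1.18 and Trim55 to −1.14, both past 2-fold.

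**Figure D4:**
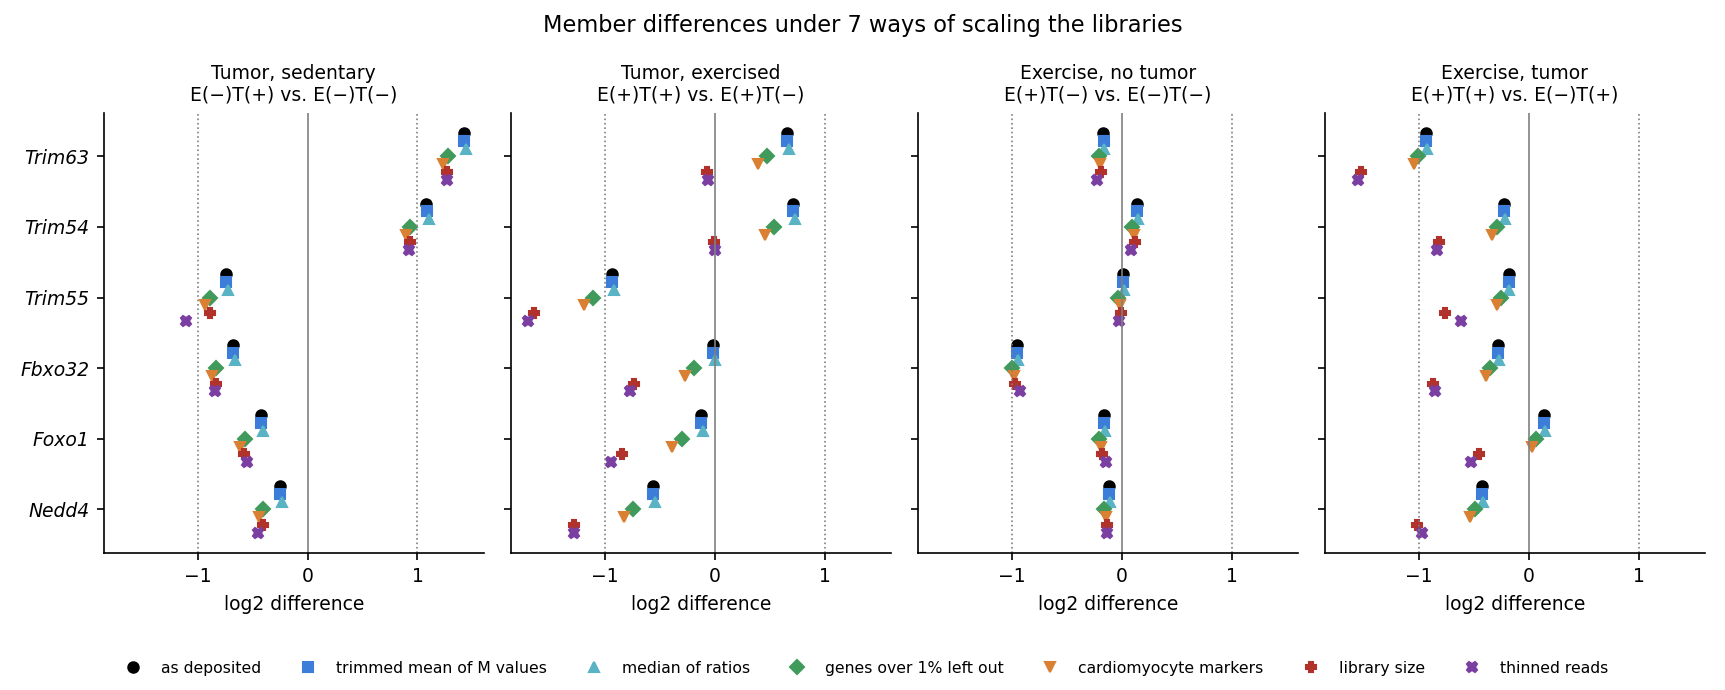
Log2 differences of 6 members in 4 comparisons under 7 ways of scaling (points by colour and shape), with dotted lines at 2-fold. In the comparisons without E(+)T(+) the points of a gene lie closer together than in those with it. Even so, Trim55 (−1.11 to −0.72) and Trim54 (0.89 to 1.10) lie across the 2-fold line (tumor, sedentary). In the comparisons with E(+)T(+) library size scaling moves Trim63 from 0.65 to −0.07 (tumor, exercised) and from −0.94 to −1.52 (exercise, tumor).

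The wider pathway was read from lists of upstream regulators, FoxO targets, other muscle ligases and ligase substrates. The lists share genes, so their counts are not separate. Among called genes, Irs2, Klf15 and Pik3ip1 are both regulators and targets, and Irs1 is both a regulator and a substrate. Of the FoxO family and its upstream regulators, 34 of 35 genes reached the count minimum. In cancer control vs. normal control, 7 were at least 2-fold higher and 0 at least 2-fold lower, against 14.6% and 13.1% of all genes tested. The list's median was 0.11 as deposited and −0.05 with library size scaling, and that of all genes −0.01 and −0.17. The genes with the largest differences were Sgk1, a glucocorticoid-induced kinase that phosphorylates FoxO, at 2.22 (2.01 to 2.45), Cebpd, an inflammation-linked transcription factor of wasting muscle, at 2.05 (1.88 to 2.23), Irs2, an insulin receptor substrate, at 2.02 (1.33 to 2.93), and Klf9, a glucocorticoid-induced repressor, at 1.31 (1.24 to 1.38). Sgk1 had 199 and 390 reads in the tumor-free hearts and 1213 and 1471 in the tumor-bearing hearts. Nr3c1, the glucocorticoid receptor, was at −0.99 (−1.21 to −0.78).

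In cancer exercise vs. cancer control, 1 gene of this list was at least 2-fold higher and 3 were at least 2-fold lower, and the median was 0.00. Of all genes tested, 9.39% were higher and 10.0% lower. Ppargc1a, a coactivator of mitochondrial genes that restrains FoxO activity, was the higher one, at 1.27 (1.12 to 1.42), with 554 reads in the cancer control and 1077 in the cancer exercise heart. Pik3ip1, an inhibitor of PI3K, was at −1.80 (−2.18 to −1.46), Klf15, a glucocorticoid target, was at −1.45 (−1.82 to −1.11) and Relb, an NF-kappaB subunit, was at −1.31 (−1.83 to −0.86). Pik3ip1 had 252 and 353 reads in the sedentary hearts and 86 and 81 in the exercised hearts, so that its exercise difference without a tumor was −1.88 (−2.26 to −1.53). Without a tumor, 2 genes of the list were at least 2-fold higher with exercise and 1 was at least 2-fold lower, against 5.88% and 6.40% of all genes tested. With tumor in exercised mice, 3 were higher and 2 lower, against 12.0% and 11.1%. With both against neither 6 were higher and 2 lower, against 12.4% and 12.2%. With scaling to library size the splits were 5 higher and 3 lower for tumor in sedentary mice, 0 and 5 for exercise with tumor, 1 and 9 for tumor in exercised mice and 2 and 12 for both against neither. Of all genes under that scaling, 12.3%, 3.81%, 5.62% and 6.04% were higher in the same order. The shares lower were 17.0%, 25.6%, 35.3% and 37.1%.

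Of the FoxO target genes, 36 of 37 reached the count minimum, and 12 were at least 2-fold higher and 1 was at least 2-fold lower in cancer control vs. normal control, with a median of 0.52 against −0.01 over all genes tested. Of those genes, 14.6% were higher and 13.1% lower. Of the 36, 9 to 11 were higher under the scalings that lower the count, where the median was 0.33 to 0.37. Under these scalings 11.7% to 12.5% of all genes were higher, and the median of all genes was −0.20 to −0.16. Mt2 and Mt1, metallothioneins that also answer to zinc and glucocorticoid, had the largest differences, at 6.37 (6.21 to 6.54) and 3.30 (3.25 to 3.35). Mt2 had 316 and 1018 reads in the tumor-free hearts and 34044 and 30381 in the tumor-bearing ones. Ctsl, a lysosomal protease, was at 2.24 (2.14 to 2.34), and Pdk4, a kinase that shuts pyruvate out of oxidation, went the other way, at −3.21 (−4.04 to −2.57), with 141 reads in the normal control and 19 in the cancer control. In exercised mice the tumor comparison had 8 of the targets higher and 1 lower. Their median was 0.36 as deposited and −0.36 with library size scaling, and that of all genes −0.01 and −0.74. As deposited, 12.0% of all genes tested were higher there and 11.1% lower. Bnip3, Cdkn1a, Fkbp5, Gadd45b, Mt1 and Mt2 were higher in both tumor comparisons, which share no library. These 6 genes were 6 of the 12 targets higher in sedentary mice and 6 of the 8 higher in exercised mice. Of all 13690 genes tested in both, 742 were higher in both, which is 41.3% of those higher in sedentary mice and 52.4% of those higher in exercised mice. Scaled to library size, 5 of the targets were higher in both and Fkbp5 was not. Under that scaling 405 of 13723 genes were higher in both. They were 27.4% of those higher in sedentary mice and 59.8% of those higher in exercised mice.

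In cancer exercise vs. cancer control, 3 targets were at least 2-fold higher and 4 were at least 2-fold lower, and the median was −0.15. Of all genes tested, 9.39% were higher and 10.0% lower. The lower targets include Pik3ip1 and Klf15, which were also counted among the regulators. Cdkn1a, the cell cycle inhibitor p21, was at 1.54 (1.47 to 1.60), and its reads were 553 in the normal control, 2341 in the normal exercise heart, 2856 in the cancer control and 6685 in the cancer exercise heart. Pdk4 was at 2.26 (1.57 to 3.12). In normal exercise vs. normal control, 3 targets were higher and 4 lower, against 5.88% and 6.40% of all genes tested. With both against neither 11 were higher and 1 lower, against 12.4% and 12.2%. With scaling to library size the splits were 1 higher and 10 lower for exercise with tumor, 6 and 4 for tumor in exercised mice and 6 and 9 for both against neither. Of all genes under that scaling, 3.81%, 5.62% and 6.04% were higher and 25.6%, 35.3% and 37.1% lower in the same order.

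**Figure D5:**
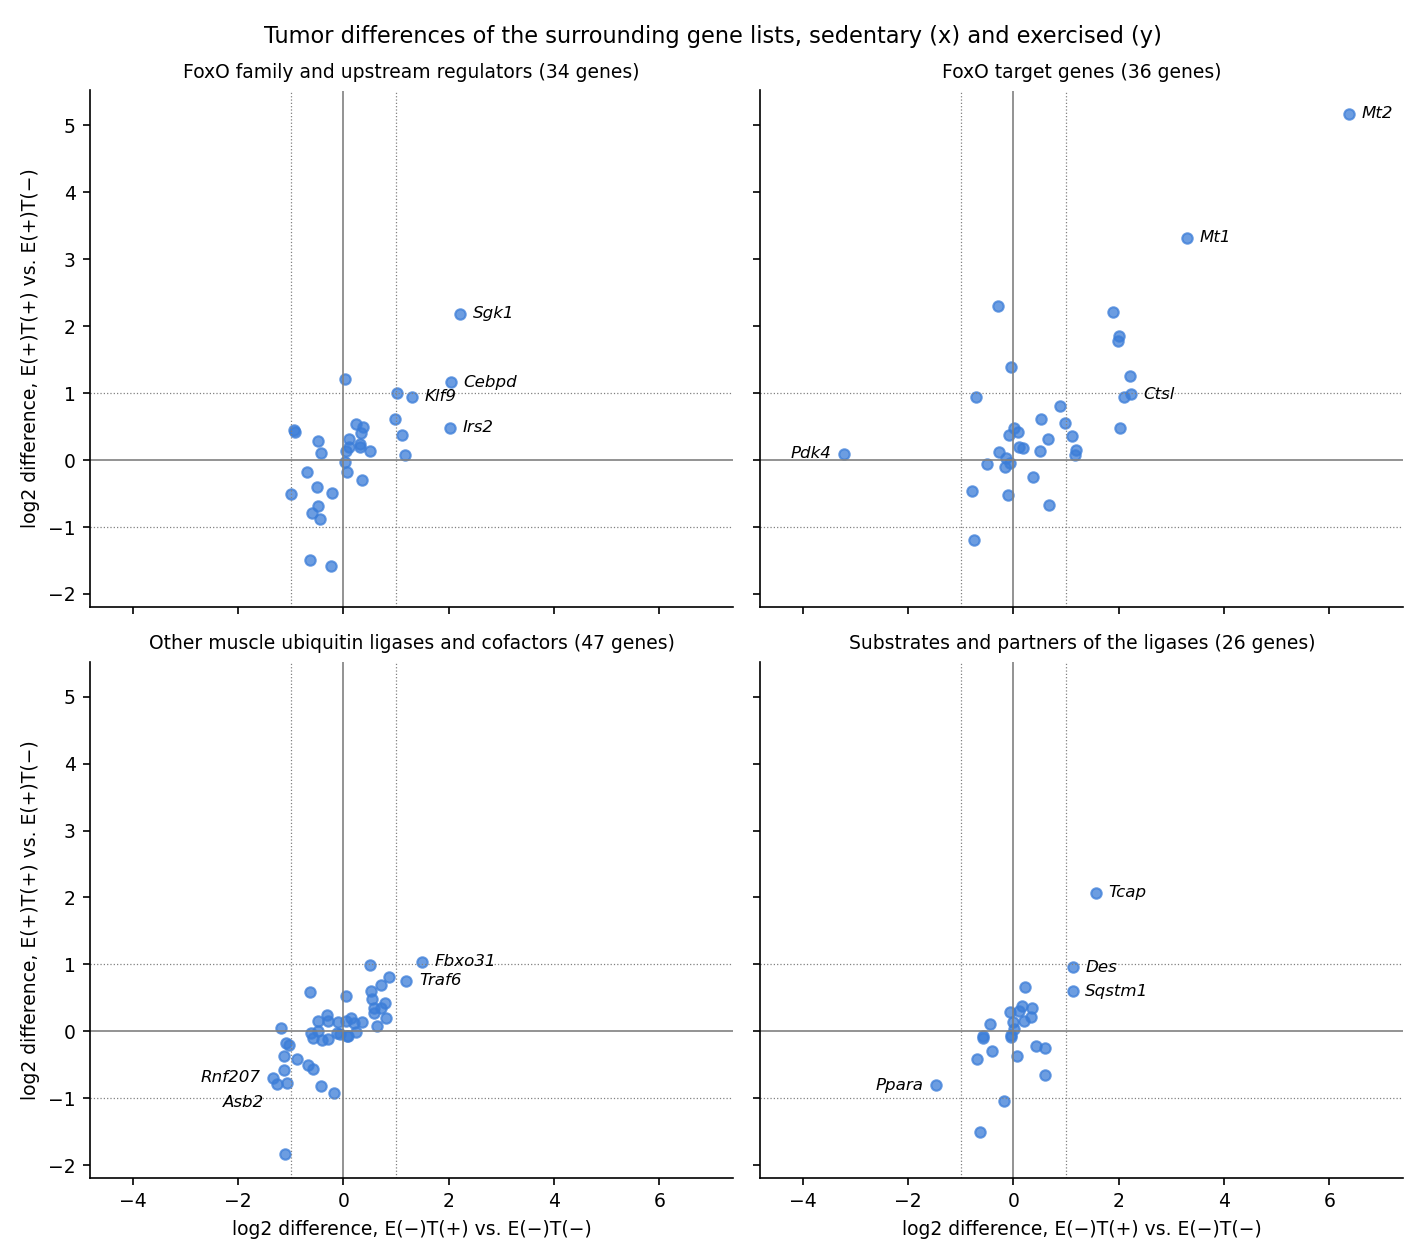
Log2 difference with tumor in sedentary mice (x) and in exercised mice (y) for the genes of 4 lists that reached the count minimum, with dotted lines at 2-fold on each axis. Mt2, Mt1 and Sgk1 lie high on both axes, at 6.37, 3.30 and 2.22 in sedentary mice, while Pdk4 is at −3.21 on the x axis only.

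Of the other muscle ubiquitin ligases and cofactors, 47 of 48 reached the count minimum. In cancer control vs. normal control, 2 were at least 2-fold higher and 9 at least 2-fold lower, with a median of −0.14, and of all genes tested 14.6% were higher and 13.1% lower. Fbxo31, an F-box ligase of the cell cycle, was at 1.49 (1.28 to 1.71) and Traf6, a signaling ligase linked to wasting, was at 1.20 (0.75 to 1.70). Rnf207, a ligase tied to cardiac repolarization, was at −1.34 (−1.71 to −0.99), and Asb2, a ligase subunit that turns over filamin, was at −1.26 (−1.38 to −1.14). Fbxo31 was also higher in the tumor comparison of exercised mice, at 1.04 (0.86 to 1.23), where it was the single higher gene and Trim32 the single lower one. In cancer exercise vs. cancer control, Asb14 was at 1.13 (0.94 to 1.33) as the single called gene of this list, Znrf2 was at −0.87, Asb11 at 0.77 and Mdm2, the ligase of p53, at 0.73. None of the 47 was called in normal exercise vs. normal control, against 5.88% higher and 6.40% lower of all genes tested. With both against neither 3 were higher and 4 lower, against 12.4% and 12.2%. The shares were 12.0% and 11.1% for tumor in exercised mice and 9.39% and 10.0% for exercise with tumor. Scaled to library size, 0 were higher in the comparisons with the cancer exercise heart. Under that scaling 4 were lower for exercise with tumor, 11 for tumor in exercised mice and 16 for both against neither. Of all genes, 3.81%, 5.62% and 6.04% were higher there and 25.6%, 35.3% and 37.1% lower, in the same order.

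Of the substrates and partners of the ligases, 26 of 27 reached the count minimum. In cancer control vs. normal control, 3 were at least 2-fold higher and 1 was at least 2-fold lower, with a median of 0.01. Of all genes tested, 14.6% were higher and 13.1% lower. Tcap, the Z-disc protein telethonin, was at 1.57 (1.52 to 1.62), Des, the intermediate filament desmin, at 1.14 (1.08 to 1.20) and Sqstm1, the autophagy receptor p62, at 1.13 (1.05 to 1.21), and of these 3 only Tcap passed 2-fold with library size scaling. Ppara, a receptor that drives fatty acid oxidation, was at −1.48 (−1.70 to −1.26). Tcap had 4078 reads in the normal control, 2762 in the normal exercise heart, 15739 in the cancer control and 9573 in the cancer exercise heart. In cancer exercise vs. cancer control none of the 26 was called, with Ppara at 0.97, Vim at −0.93, Fhl2 at 0.71 and Ckm at 0.59. The exercise comparison without tumor called none of the 26 either, the tumor comparison in exercised mice called 1 higher and 2 lower, and both against neither called 2 higher and 0 lower. The shares of all genes tested, higher and lower, were 5.88% and 6.40%, 12.0% and 11.1%, and 12.4% and 12.2% in the same order. For exercise with tumor they were 9.39% and 10.0%. With scaling to library size the splits were 0 higher and 3 lower for exercise with tumor, 1 and 7 for tumor in exercised mice and 0 and 7 for both against neither. Of all genes under that scaling, 3.81%, 5.62% and 6.04% were higher and 25.6%, 35.3% and 37.1% lower in the same order.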

How the data were processed

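Hearts were profiled by QuantSeq 3′ mRNA-seq, which reads transcript ends, so that reads per gene do not scale with transcript length. The authors aligned reads with Bowtie2, counted them with bedtools and normalized the counts by a quantile method of edgeR, and their processing notes name mm10. The deposited values are log2 values of normalized read counts with a pseudocount of 1, for 23282 rows. Of 35 symbols with several rows, none a member, the highest row was used. Whole reads were recovered by fitting library sizes and a common dispersion of 0.149, which gave back every deposited value within 0.000515. On simulated data for 17174 genes, 97.7% of read numbers came back exactly.

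With 1 library per group, no test was planned or run. Intervals are 95% Clopper–Pearson intervals of read ratios and cover counting error only. The members and gene lists were chosen with earlier results of these data known. Every member is named, and from each list the up to 4 genes with the largest differences in cancer control vs. normal control and in cancer exercise vs. cancer control at a mean of at least 16 normalized reads. Foxo4, Foxo6, Nr3c1, Trim32 and the targets higher in both tumor comparisons were picked after their values were seen. Alternatives were 4 scalings, thinned reads, cardiomyocyte-relative values, pseudocounts of 0.5 and 4, summed duplicate symbols, a count minimum of 16 or none, and a fold of 1.5. Python 3.11.15, numpy 2.4.6, scipy 1.17.1 and pandas 2.3.3 were used.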

Additional observations from a re-analysis of the deposited data

Results flagged for a closer look

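Trim54, the ligase MuRF3, had exercise differences of opposite direction in the tumor-free and the tumor-bearing hearts, each beyond counting error in the deposited values. The difference was 0.142 on the log2 scale in normal exercise vs. normal control and −0.225 in cancer exercise vs. cancer control. With 1 library per group the difference between these values was not tested against the spread between mice. The direction was the same with every scaling tried, at 0.08 to 0.15 without a tumor and −0.84 to −0.22 with one. Without a tumor the deposited interval, 0.0085 to 0.28, lay close to 0. That this difference is beyond counting error is therefore stated for the deposited values only. Trim54 was chosen here for this contrast of signs.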

How the results depend on the processing

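With scaling to library size, 37 of 50 member differences kept their sign, and 19 of the 47 that had a counting interval stayed inside it. With thinned reads the counts were 36 and 20, relative to the cardiomyocyte markers 45 and 31, and with genes over 1% of a library left out 44 and 35. With the other 2 scalings, the pseudocounts and summed duplicates all 47 stayed inside. Of the differences between the exercise differences, 8 of 10 kept their sign with library size scaling and 1 of the 8 with an interval stayed inside it. Most shifts came with the cancer exercise heart, whose globin share was high. Scaling to library size moved the median of all genes by −0.59 in cancer exercise vs. cancer control, −0.73 in cancer exercise vs. normal exercise, −0.75 in cancer exercise vs. normal control and −0.16 in cancer control vs. normal control. With it, the members past 2-fold went from 0 to 2 in cancer exercise vs. cancer control, from 0 to 2 in cancer exercise vs. normal exercise and from 1 to 5 in cancer exercise vs. normal control, where 29.5%, 40.9% and 43.1% of all genes were past 2-fold. The medians of the members went from −0.09 to −0.63, from −0.10 to −0.82 and from −0.09 to −0.74, and that of the difference between the exercise differences from −0.25 to −0.82. With thinned reads the same counts were 1, 2 and 5 and the medians −0.57, −0.72, −0.65 and −0.57. Of all genes, 31.2%, 41.2% and 43.2% were then past 2-fold in the 3 comparisons. Leaving genes over 1% of a library out of the scaling gave counts of 1, 1 and 3, against 19.4%, 24.7% and 27.2% of all genes. Relative to the cardiomyocyte markers they were also 1, 1 and 3, and the median in cancer exercise vs. normal exercise was −0.36. A fold of 1.5 gave 2 members in normal exercise vs. normal control, 5 in cancer control vs. normal control, 1 in cancer exercise vs. cancer control, 4 in cancer exercise vs. normal exercise and 5 in cancer exercise vs. normal control. A count minimum of 16 left 0 in normal exercise vs. normal control, where Cblb alone had been called. The shares of all genes at that fold and at that minimum are not given here, so these counts are not read as a result about the members. Trim63 turned direction with library size scaling and thinned reads in cancer exercise vs. normal exercise, to −0.07 and −0.06, and in cancer exercise vs. normal control, to −0.25 and −0.29. No paired analysis was possible because each group had 1 library, and for the same reason no library could be left out. Few reads limit Cblb, and why Foxo3 was listed at or near 0 was not tested.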

Other observations

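The genes whose pattern over the 4 libraries was most like that of Trim63, among 8298 genes with a mean log2 value of at least 6, were Clec4a2, Gprc5b, Ctps, Cstb and Gm15421, with root mean square log2 differences of 0.0354, 0.0440, 0.0536, 0.0573 and 0.0787. Clec4a2, a lectin of myeloid cells, had 40 reads in the normal control, 47 in the normal exercise heart, 151 in the cancer control and 60 in the cancer exercise heart. Cstb, an inhibitor of lysosomal proteases, had 264, 327, 975 and 387 reads in the same order, and Ctps, an enzyme of CTP synthesis, had 127, 136, 402 and 174. For Fbxo32 the nearest were Fbxl12, Mlh3, Asxl2, Art4 and Ifit3, at 0.0784, 0.0862, 0.0877, 0.0970 and 0.101. Fbxl12, another F-box protein, had 150, 111, 137 and 91 reads. Over only 4 libraries, close patterns are given as a description only.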
